A study of Mus musculus with 16 samples.

Results

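The resident Kupffer cell genes examined in these livers were Clec4f, Vsig4, Timd4, Marco, Cd5l, Adgre1, Csf1r, C1qa, C1qb and C1qc. They were taken from the table of counts by gene symbol. All 10 were among the 41079 genes of the table, and all 10 were among the 16742 genes that had enough reads to be tested. Liver RNA of 16 mice was sequenced after poly-A selection, with 4 mice in each of the groups male CRE-, male LKO, female CRE- and female LKO. LKO mice lack the glucagon receptor in the liver, and the question was how its loss in the hepatocyte changed the aged liver of each sex. All mice were 20 to 22 months old and on the C57BL/6J background, and all carried the floxed allele of Gcgr, the controls included. The LKO mice also carried Cre driven by the Albumin promoter, which is active in hepatocytes, so Kupffer cells were not the cells targeted. The controls carried no Cre, so an effect of Cre itself cannot be told apart from that of the deletion.

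Kupffer cells are the resident macrophages of the liver. They sit in the sinusoids, where they take up bacteria, dying blood cells and debris from the portal blood, and they renew themselves locally, with replacement from blood monocytes when they are lost. Their survival depends on signals through the receptor for CSF1, and their identity is marked by surface receptors and secreted proteins that few other liver cells make.

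Between 33268424 and 56488920 reads per library were counted on genes. The medians were 44288170 in male CRE-, 38475729.5 in male LKO, 46840916 in female CRE- and 37348750.5 in female LKO libraries. Levels are given as CPM (counts relative to a library total scaled by TMM, a trimmed mean over genes). Changes are log2 fold changes of LKO against CRE- of the same sex from one edgeR fit of all 16 libraries. Each is given with its standard error (SE), and a gene is said to differ where its adjusted p was under 0.05. Gcgr, the targeted gene, lies on chromosome 11 from 120420011 to 120429815 (GRCm39). Gcgr was at 190.4, 193, 127 and 189.6 CPM in male CRE- replicates 1 to 4 and at 117, 136, 129.9 and 160.3 CPM in male LKO replicates 1 to 4. Gcgr was at 162, 208, 201 and 180.0 CPM in female CRE- replicates 1 to 4 and at 48.8, 132, 119 and 93.6 CPM in female LKO replicates 1 to 4. Every female LKO library was below every female control, whereas the male groups overlapped because CRE- replicate 3 was as low as the LKO libraries. Because exons outside the floxed segment are counted too, Gcgr checks the labels only in part. The female change of -0.93 (SE 0.25) reached an adjusted p of 0.0443 by the quasi-likelihood test of edgeR with Benjamini-Hochberg adjustment. It passed in 1 of 8 fits with a female library left out, the one without LKO replicate 2. Of the 7 other settings tried it passed in 4. With females fitted alone the adjusted p of the quasi-likelihood test of edgeR (Benjamini-Hochberg) was 0.132. The male change was -0.37 (SE 0.24). Xist and Ddx3y were also read as checks of the labels. Xist was at 386, 399, 334 and 137 CPM in female CRE- replicates 1 to 4 and at no more than 0.243 CPM in males. Ddx3y had no reads in any female library.

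The libraries differed widely in the summed level of the 10 genes. It was 1097, 583, 311 and 1655 CPM in male CRE- replicates 1 to 4 and 1481, 811, 899 and 829 CPM in male LKO replicates 1 to 4. In females it was 966, 716, 796 and 1623 CPM in the CRE- replicates and 4409.9, 1222, 2878 and 1742 CPM in the LKO replicates, in the same order. Some libraries stood apart in these genes. Female LKO replicate 1 was highest of all, male CRE- replicate 3 was lowest of all, and male LKO replicate 1 was above the rest of its group. Female CRE- replicate 4 was highest among its group in 9 of the genes and had only 2 reads of Marco. The mean sum was 912 ± 593 CPM (SD, n = 4) in male CRE-, 1005 ± 319 CPM (SD, n = 4) in male LKO, 1025 ± 412 CPM (SD, n = 4) in female CRE- and 2563 ± 1412 CPM (SD, n = 4) in female LKO libraries. The difference in mean log2 sum between LKO and CRE- was 1.23 in females and 0.36 in males, and without the C1q chains it was 1.29 and 0.31. Both male differences turned negative without male CRE- replicate 3, the lowest library. In bulk liver, more or fewer Kupffer cells and more or less of these RNAs per cell cannot be told apart.

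In female LKO livers the 10 genes were all higher on average than in female controls, with a median log2 fold change of 1.34 against 0.04 over all genes tested. By the quasi-likelihood test of edgeR with Benjamini-Hochberg adjustment, 1 of the 10, Adgre1, differed, beside 4.24% of all genes tested in either direction and 2.09% as higher. At an unadjusted p under 0.05 there were 8 of the 10, beside 21.4% of all genes in either direction and 12.3% as higher. DESeq2's Wald test called 6 (11.1% of its genes) and limma-voom with sample quality weights called 9 (11.8%). The edgeR count was 0 without any one of CRE- replicates 1, 2, 3 or 4 and 0 without LKO replicate 1 or 3. It was 4 without LKO replicate 2 and 1 without LKO replicate 4. The share of all genes called in each of these fits is not given here, so the counts cannot be set beside it. The median over the 10 genes was 0.98 without LKO replicate 1, 1.62 without CRE- replicate 4 and between 1.19 and 1.57 without any other female library. All 10 values were above 0 in each of these fits. Every female LKO library was above every female control for 3 of the genes, Timd4, Marco and Adgre1, beside 5.20% of all genes tested.

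In male LKO livers the median of the 10 genes was 0.15, against -0.01 over all genes tested, and no gene differed in edgeR's quasi-likelihood test (0.454% of all genes did). None had an unadjusted p under 0.05 (9.53% of all genes did). DESeq2 called 0 of the 10 (2.03% of its genes) and limma-voom 0 (0.884%). No gene had every male LKO library above every male control, which 3.57% of all genes had. The sign of the male median rested on single libraries. It was -0.02 without CRE- replicate 2, -0.19 without CRE- replicate 3 and -0.15 without LKO replicate 1, while it was 0.64 without CRE- replicate 4. It was also -0.06 under limma-voom.

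**Figure D1:**
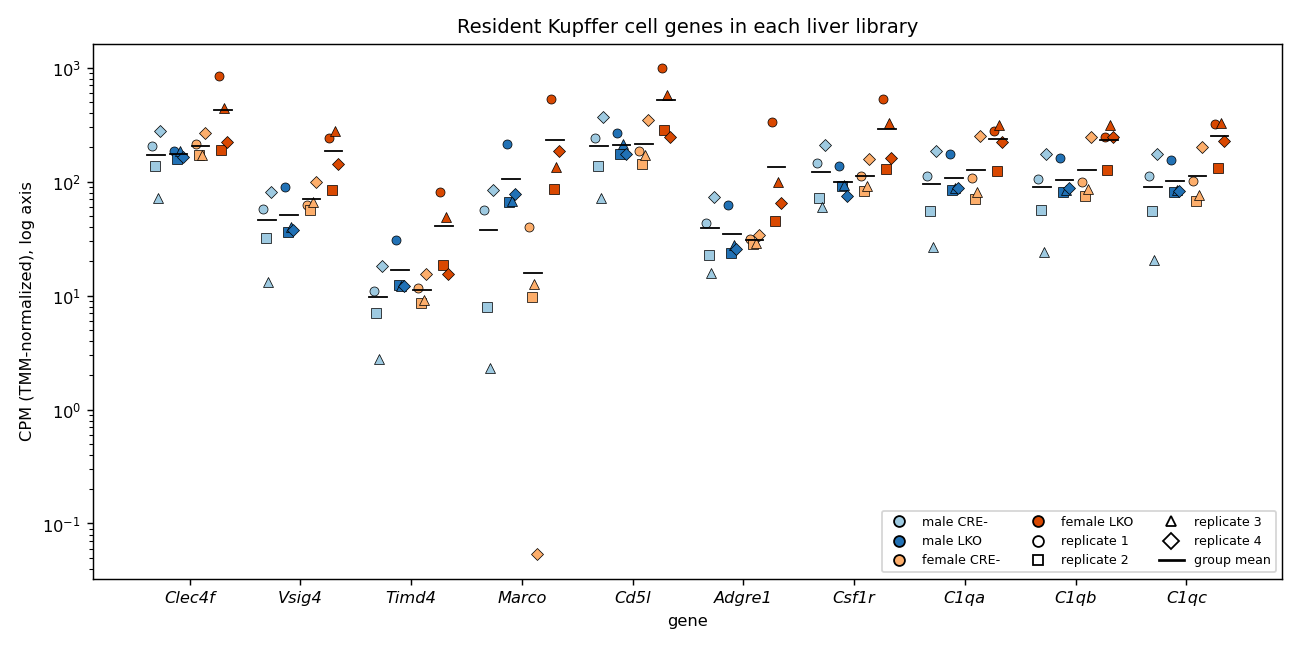
CPM of each gene (x axis) on a log axis in the 16 libraries, with colour for the group, marker shape for the replicate and a bar for the group mean. Female LKO replicate 1 holds the highest value of 6 of the genes, and the lowest point is Marco in female CRE- replicate 4, at 0.0535 CPM (2 reads).

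Clec4f, Vsig4, Timd4, Marco and Cd5l are the members whose RNA in liver is made mainly by Kupffer cells. Clec4f, a galactose-binding lectin receptor used as a Kupffer cell marker in the mouse, lies on chromosome 6 from 83621524 to 83633098. Clec4f was at 214, 172, 172 and 270.0 CPM in female CRE- replicates 1 to 4 and at 845, 188, 447 and 224 CPM in female LKO replicates 1 to 4. LKO replicates 1 and 3 were above every control, while LKO replicates 2 and 4 lay within the range of the controls. In males Clec4f was at 206, 138, 71.8 and 277 CPM in the CRE- replicates and at 185, 158, 187 and 166 CPM in the LKO replicates, each in the order 1 to 4. The LKO libraries were close to one another and lay inside the wider range of the controls, from the low replicate 3 to the high replicate 4. Female means were 207 ± 46.4 CPM (SD, n = 4) for CRE- and 426 ± 302 CPM (SD, n = 4) for LKO, a log2 fold change of 1.04 (SE 0.42) with 3 of 4 LKO libraries above the control mean. It was 0.49 without LKO replicate 1. In males the change was 0.01 (SE 0.42), with 2 of 4 LKO libraries above the control mean. Its sign turned, to -0.09 without CRE- replicate 2, -0.27 without CRE- replicate 3, -0.05 without LKO replicate 1 and -0.03 without LKO replicate 3.

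Vsig4, a complement receptor for C3b and iC3b that captures bacteria from the blood, lies on chromosome X from 95290807 to 95337044. Vsig4 was at 62.4, 56.4, 65.8 and 98.8 CPM in female CRE- replicates 1 to 4 and at 242, 84.3, 279 and 142 CPM in female LKO replicates 1 to 4. LKO replicates 1, 3 and 4 were above every control and LKO replicate 2 was below control replicate 4. In males Vsig4 was at 57.5, 32.0, 13.1 and 81.6 CPM in the CRE- replicates and at 90.6, 36.4, 39.8 and 38.0 CPM in the LKO replicates, each in the order 1 to 4. LKO replicate 1 was the highest of the 8 and the other LKO libraries lay within the range of the controls. The female change was 1.40 (SE 0.48), with 4 of 4 LKO libraries above the control mean, and it was 1.13 without LKO replicate 3. The male change was 0.15 (SE 0.47), with 1 of 4 LKO libraries above the control mean. It came to -0.18 without CRE- replicate 3 and -0.30 without LKO replicate 1.

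Timd4, a phosphatidylserine receptor for dying cells that marks long-lived resident macrophages, lies on chromosome 11 from 46701613 to 46735160. Timd4 was at 11.6, 8.70, 9.15 and 15.3 CPM in female CRE- replicates 1 to 4 and at 81.0, 18.5, 48.8 and 15.6 CPM in female LKO replicates 1 to 4. All LKO libraries were above all controls, although LKO replicate 4 exceeded control replicate 4 by little. In males Timd4 was at 11.1, 7.02, 2.81 and 18.2 CPM in the CRE- replicates and at 31.0, 12.3, 12.2 and 12.2 CPM in the LKO replicates, each in the order 1 to 4. LKO replicate 1 was apart from the other 3, which were nearly equal and lay within the range of the controls. The female change was 1.87 (SE 0.55), higher in 4 of 4 LKO libraries than the control mean, and it was 1.33 without LKO replicate 1. In males 4 of 4 LKO libraries were also above the control mean, and the change was 0.79 (SE 0.54), or 0.30 without LKO replicate 1 and 1.28 without CRE- replicate 4.

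Marco, a scavenger receptor with a collagen-like stalk that binds bacteria and particles, lies on chromosome 1 from 120402267 to 120432753. Marco was at 40.3, 9.81, 12.7 and 0.0535 CPM in female CRE- replicates 1 to 4 and at 532, 86.5, 134 and 186 CPM in female LKO replicates 1 to 4. All LKO libraries were above all controls. Control replicate 4 held 2 reads of Marco where the other female controls held 1816, 504 and 532, although Clec4f, Cd5l and the C1q chains were highest there among the female controls. In males Marco was at 56.8, 8.02, 2.34 and 83.9 CPM in the CRE- replicates and at 214, 66.4, 67.5 and 78.0 CPM in the LKO replicates, each in the order 1 to 4. The male controls spanned a wide range, with replicates 2 and 3 far below replicates 1 and 4, while LKO replicates 2, 3 and 4 were alike and LKO replicate 1 was higher. The female change was 3.90 (SE 1.18). It was 3.47 without the control with 2 reads, 3.12 without LKO replicate 1 and 4.95 without CRE- replicate 1. The male change was 1.49 (SE 1.08), with 4 of 4 LKO libraries above the control mean, and it was 0.87 without LKO replicate 1 and 2.25 without CRE- replicate 4. Marco had a biological coefficient of variation of 1.003 within groups, larger than that of 98.1% of all genes tested.

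Cd5l, a secreted protein of tissue macrophages that binds lipids and IgM and is also called AIM, lies on chromosome 3 from 87265188 to 87278381. Cd5l was at 186, 145, 172 and 348 CPM in female CRE- replicates 1 to 4 and at 991, 285, 583 and 248 CPM in female LKO replicates 1 to 4. LKO replicates 1 and 3 were above every control, and LKO replicates 2 and 4 were below control replicate 4. In males Cd5l was at 245, 138, 72.7 and 373 CPM in the CRE- replicates and at 269, 175, 214 and 176 CPM in the LKO replicates, each in the order 1 to 4. All LKO libraries lay within the range of the controls. The female change was 1.31 (SE 0.48), with 4 of 4 LKO libraries above the control mean, and it was 0.83 without LKO replicate 1. The male change, with 2 of 4 LKO libraries above the control mean, was 0.01 (SE 0.47). It came to -0.14 without CRE- replicate 2, -0.29 without CRE- replicate 3, -0.16 without LKO replicate 1 and -0.0014 without LKO replicate 3.

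None of these 5 genes passed the threshold of edgeR in either sex, although all 5 had an unadjusted p under 0.05 in females and none in males. In the quasi-likelihood test of edgeR with Benjamini-Hochberg adjustment, the female adjusted p was 0.160 for Clec4f, 0.0987 for Vsig4, 0.0641 for Timd4, 0.0701 for Marco and 0.119 for Cd5l. For males that edgeR test (Benjamini-Hochberg) gave an adjusted p of 0.998 for Clec4f, 0.942 for Vsig4, 0.683 for Timd4, 0.697 for Marco and 0.998 for Cd5l. With DESeq2, Vsig4, Timd4, Marco and Cd5l passed in females and Clec4f did not, and the same was true with limma-voom. Without female LKO replicate 2, Vsig4, Timd4 and Csf1r joined Adgre1 as past the threshold in edgeR.

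Adgre1 and Csf1r are shared by macrophages of many tissues and by monocytes. Adgre1 encodes F4/80, an adhesion receptor used as a general macrophage marker in the mouse, and lies on chromosome 17 from 57665650 to 57790527. Adgre1 was at 31.3, 28.5, 28.7 and 34.2 CPM in female CRE- replicates 1 to 4 and at 334, 45.2, 99.4 and 64.9 CPM in female LKO replicates 1 to 4. The female controls were close together, and all LKO libraries were above them, with replicate 1 far above the other 3. In males Adgre1 was at 43.7, 22.7, 15.8 and 73.8 CPM in the CRE- replicates and at 62.3, 23.5, 27.9 and 25.6 CPM in the LKO replicates, each in the order 1 to 4. The LKO libraries lay within the range of the controls, again with replicate 1 the highest of them. Adgre1 rose in female LKO livers, where the mean was 136 ± 134 CPM (SD, n = 4), against 30.7 ± 2.65 CPM (SD, n = 4) in the controls. The log2 fold change was 2.15 (SE 0.57, adjusted p = 0.0452 in the quasi-likelihood test of edgeR with Benjamini-Hochberg adjustment), with 4 of 4 LKO libraries above every control. This call was near the threshold. By that edgeR test (Benjamini-Hochberg) the adjusted p was 0.0832, 0.139, 0.121 and 0.0919 with CRE- replicate 1, 2, 3 or 4 left out in turn. With LKO replicate 1, 2, 3 or 4 left out it was 0.190, 0.0199, 0.0561 and 0.0469 under the same test. Without LKO replicate 1 the log2 fold change was 1.21. With females fitted alone the edgeR adjusted p, by Benjamini-Hochberg, was 0.0857, the highest over the 7 other settings tried, and the lowest was 0.00204 with DESeq2. The male change was -0.17 (SE 0.55, adjusted p = 0.946 by that edgeR test (Benjamini-Hochberg)), with 3 of 4 LKO libraries below the control mean, and it was 0.35 without CRE- replicate 4.

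Csf1r, the receptor for the growth factors CSF1 and IL34 on which macrophages depend, lies on chromosome 18 from 61238644 to 61264211. Csf1r was at 111, 82.7, 91.5 and 159 CPM in female CRE- replicates 1 to 4 and at 535, 131, 329 and 162 CPM in female LKO replicates 1 to 4. LKO replicates 1, 3 and 4 were above every control, replicate 4 by little, and LKO replicate 2 was below control replicate 4. In males Csf1r was at 147, 71.3, 60.6 and 209.5 CPM in the CRE- replicates and at 137, 92.1, 93.3 and 75.1 CPM in the LKO replicates, each in the order 1 to 4. The LKO libraries lay within the range of the controls, whose replicate 4 was the highest male value. The female change was 1.38 (SE 0.44, adjusted p = 0.0809 in the quasi-likelihood test of edgeR with Benjamini-Hochberg adjustment), with 4 of 4 LKO libraries above the control mean. It was 0.92 without LKO replicate 1. The male change was -0.30 (SE 0.43, adjusted p = 0.858 by that edgeR test (Benjamini-Hochberg)), with 3 of 4 LKO libraries below the control mean, and it was 0.10 without CRE- replicate 4.

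C1qa, C1qb and C1qc encode the A, B and C chains of C1q, the recognition part of the first complement component, which macrophages secrete and which binds antibody complexes and dying cells. The genes lie side by side on the minus strand of chromosome 4, C1qb from 136607437 to 136613511, C1qc from 136617115 to 136620225 and C1qa from 136623227 to 136626155, within 18.7 kb. C1qa was at 108, 69.9, 81.5 and 251 CPM in female CRE- replicates 1 to 4 and at 279, 124, 317 and 225 CPM in female LKO replicates 1 to 4. C1qb was at 100.05, 75.1, 86.4 and 245 CPM in female CRE- replicates 1 to 4 and at 246, 127, 316 and 248 CPM in female LKO replicates 1 to 4. C1qc was at 101, 67.8, 76.7 and 201 CPM in female CRE- replicates 1 to 4 and at 324, 132, 325 and 227 CPM in female LKO replicates 1 to 4. The female order was alike for the chains, with LKO replicates 1 and 3 highest for C1qa and C1qc, LKO replicate 2 low, and control replicate 4 far above the other controls and above LKO replicate 2. In males C1qa was at 112, 55.2, 26.6 and 188 CPM in the CRE- replicates and at 174, 83.9, 88.0 and 88.0 CPM in the LKO replicates, each in the order 1 to 4. In males C1qb was at 106, 56.5, 24.4 and 175 CPM in the CRE- replicates and at 163, 81.6, 85.0 and 88.5 CPM in the LKO replicates, each in the order 1 to 4. In males C1qc was at 112, 54.8, 20.5 and 176 CPM in the CRE- replicates and at 154, 82.0, 85.0 and 82.6 CPM in the LKO replicates, each in the order 1 to 4. For each chain the male LKO libraries lay within the range of the controls, LKO replicate 1 was second to control replicate 4, and control replicate 3 was lowest. The female change was 0.89 (SE 0.51) for C1qa, 0.89 (SE 0.50) for C1qb and 1.17 (SE 0.51) for C1qc. The level was above the control mean in 3 of 4 LKO libraries for C1qa and in 4 of 4 for C1qb and C1qc. Without female CRE- replicate 4 the log2 fold change was 1.46, 1.44 and 1.63 for the chains in the order A, B and C. The female adjusted p in the quasi-likelihood test of edgeR with Benjamini-Hochberg adjustment was 0.343 for C1qa, 0.322 for C1qb and 0.191 for C1qc. With limma-voom, which gives discordant libraries less weight, all 3 chains passed in females, and with DESeq2 none did.

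In males the change was 0.18 (SE 0.51) for C1qa, 0.21 (SE 0.49) for C1qb and 0.15 (SE 0.50) for C1qc, with 1 of 4 LKO libraries above the control mean for each. The male adjusted p was 0.934 for C1qa, 0.921 for C1qb and 0.945 for C1qc in the quasi-likelihood test of edgeR with Benjamini-Hochberg adjustment. The male change of C1qa was -0.01 without CRE- replicate 2, -0.15 without CRE- replicate 3 and -0.16 without LKO replicate 1. That of C1qb was -0.13 without CRE- replicate 3 and -0.11 without LKO replicate 1. That of C1qc was -0.02 without CRE- replicate 2, -0.20 without CRE- replicate 3 and -0.15 without LKO replicate 1.

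**Figure D2:**
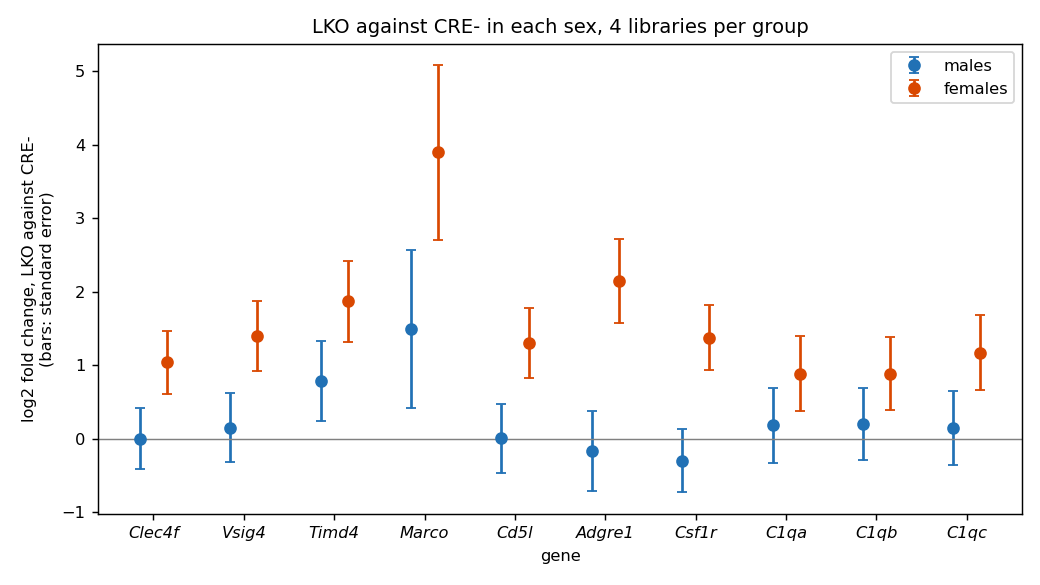
Log2 fold change of LKO against CRE- for each gene (x axis), points for males and females, bars for the standard error, from the edgeR fit of 16 libraries. All 10 female points are above 0, from 0.89 (C1qa) to 3.90 (Marco), and the male points run from -0.30 (Csf1r) to 1.49 (Marco).

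Whether the LKO effect differed between the sexes was tested by the interaction term, female effect minus male effect. It was above 0 for all 10 genes, with a median of 1.17 against 0.04 over all genes tested. In the quasi-likelihood test of edgeR with Benjamini-Hochberg adjustment 0 of the 10 passed, as did 0% of all genes tested, and the adjusted p ran from 0.218 to 0.630. At an unadjusted p under 0.05 there were 2 of the 10, Adgre1 and Csf1r, beside 16% of all genes tested. DESeq2 gave 0 (2.22% of its genes) and limma-voom 0 (0.173%). The difference was 2.31 (SE 0.79) for Adgre1, 1.67 (SE 0.61) for Csf1r and 2.40 (SE 1.51) for Marco. For the other genes it was 1.03 for Clec4f, 1.25 for Vsig4, 1.08 for Timd4, 1.30 for Cd5l, 0.71 for C1qa, 0.68 for C1qb and 1.02 for C1qc. Without female LKO replicate 1 it was 0.49 for Clec4f, 0.55 for Timd4, 0.83 for Cd5l and 1.39 for Adgre1. Without male CRE- replicate 4 it was 0.82 for Vsig4, 0.59 for Timd4, 0.85 for Cd5l, 0.14 for C1qa, 0.14 for C1qb and 0.48 for C1qc. For C1qa and C1qb it was 1.31 and 1.27 without female CRE- replicate 4, 1.37 and 1.31 with limma-voom, and 1.06 for C1qa without male LKO replicate 1 and 1.03 for C1qb without male CRE- replicate 3. It stayed above 0 in each of these fits. The female call for Adgre1 is therefore not shown to be particular to females.

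Between the controls of the sexes no difference passed. Female against male CRE- gave 0 of the 10 in edgeR's quasi-likelihood test (0.920% of all genes tested passed), 0 at an unadjusted p under 0.05 (12.7%), 0 with DESeq2 (3.11%) and 0 with limma-voom (1.97%). The median was 0.23 against -0.01 over all genes, and it was -0.09 without male CRE- replicate 3 and -0.19 without female CRE- replicate 4. The log2 difference, female minus male, was 0.26 for Clec4f, 0.62 for Vsig4, 0.19 for Timd4, -1.26 for Marco, 0.04 for Cd5l, -0.35 for Adgre1, -0.13 for Csf1r, 0.42 for C1qa, 0.48 for C1qb and 0.30 for C1qc. The sign changed for Clec4f (-0.01 without male CRE- replicate 3), Timd4 (-0.13 without male CRE- replicate 3 and -0.04 without female CRE- replicate 4) and Cd5l (-0.11 without male CRE- replicate 2, -0.26 without male CRE- replicate 3 and -0.35 without female CRE- replicate 4). It also changed for Adgre1 (0.16 without male CRE- replicate 4), Csf1r (0.26 without male CRE- replicate 4), C1qa (-0.19 without female CRE- replicate 4), C1qb (-0.10 without female CRE- replicate 4) and C1qc (-0.05 without male CRE- replicate 3 and -0.20 without female CRE- replicate 4). With 1 library left out that of Vsig4 ran from 0.29 (male CRE- replicate 3) to 1.05 (male CRE- replicate 4), and that of Marco from -2.32 (female CRE- replicate 1) to -0.51 (male CRE- replicate 4). Summed over the genes, the male controls spread over a wider range than the female controls.

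Levels of different genes were compared per kb of exon. The median over the 16 libraries was 112 CPM per kb for Cd5l, 102 for C1qa, 93.5 for C1qb, 96.4 for C1qc, 55.0 for Clec4f, 44.7 for Vsig4, 31.3 for Csf1r, 34.8 for Marco, 9.97 for Adgre1 and 5.37 for Timd4, in the order of the mean log2 level. Cd5l and the C1q chains did not differ beyond the spread between libraries. The log2 ratio of Cd5l to C1qa was 0.11 ± 0.40 (SD, n = 16), that of C1qa to C1qb 0.05 ± 0.09 and that of C1qb to C1qc 0.04 ± 0.16. C1qc was above Clec4f in 15 of 16 libraries, by 0.73 ± 0.48 (SD, n = 16), and Vsig4 was above Csf1r in 15, by 0.50 ± 0.52. Clec4f and Vsig4 differed by 0.39 ± 0.54, with Clec4f higher in 12, among them all 8 controls. Vsig4 was higher in male LKO replicate 1 and in female LKO replicates 2, 3 and 4, so their order differed between groups. Adgre1 was above Timd4 in 16 of 16, by 1.02 ± 0.47 (SD, n = 16). Marco had no stable place, since its log2 ratio to Adgre1 was 0.44 ± 2.64 and that of Csf1r to Marco 0.93 ± 2.84. The ratio of C1qa to C1qb per kb stayed between 0.923 and 1.16 in the 16 libraries and that of C1qc to C1qb between 0.822 and 1.32. Cd5l to Clec4f ran from 1.40 to 2.54, and Vsig4 to Clec4f from 0.433 to 1.51.

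Within groups the genes moved together from library to library. After each group mean was removed from log2 CPM, the 45 pairs of genes had Pearson correlations over the 16 libraries from 0.122 (Marco and C1qb) to 0.994 (C1qa and C1qb), with a median of 0.865. C1qc had an r of 0.990 with C1qa and 0.986 with C1qb, and Clec4f an r of 0.958 with Cd5l. Cd5l and Csf1r had an r of 0.960, and Adgre1 was closest to Csf1r at 0.931. Marco had an r of 0.291 with the mean of the other 9 genes, where the other genes had 0.798 (C1qb) to 0.928 (Timd4). The low value of Marco rested on the library with 2 reads, since without female CRE- replicate 4 it was 0.904 over 15 libraries, beside 0.905 (Clec4f) to 0.961 (C1qc) for the other genes. Among the 36 pairs without Marco the lowest r was 0.690. These points share the depth and the scaling of each library, so the correlations are a description. Within groups the biological coefficient of variation was 0.415 for Clec4f, 0.427 for Csf1r, 0.461 for Vsig4, 0.462 for Cd5l, 0.483 for C1qb, 0.492 for C1qc, 0.498 for C1qa, 0.522 for Timd4 and 0.531 for Adgre1. The median of all genes tested was 0.311.

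Outside the 10 genes, those most like them by the correlation of group-centred log2 CPM with their mean over the 16 libraries were Lgmn (r = 0.975), Ncf1 (0.970), Cd300c2 (0.968), Aif1 (0.952), Pld4 (0.951), Pdlim4 (0.951), Oas1g (0.946), Rac2 (0.945), Fcgr1 (0.942) and Dok2 (0.941). Without centring on the groups, 7 of these 10 were again among the closest.

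The promoters were examined because the genes moved together from library to library. RefSeq promoter sequences (250 bases before to 50 after the start of the gene, GRCm39) were at hand for 7 of the 10 genes, Marco, Cd5l, C1qb, C1qc, Clec4f, Timd4 and Vsig4. Both strands were searched for GAGGAAGT, a core sequence bound by PU.1, the transcription factor of myeloid cells, whose reverse complement is ACTTCCTC. Over 300 bases it was present in 1 of the 7, C1qc, and in 3.20% of the 32851 promoters (1052). Over the first 250 bases it was present in C1qc and in 2.44% of all promoters (802). A match says only that these letters are in the window. The 250 bases before the start are shown for C1qc and for its neighbour C1qb, whose window does not hold the letters, and for Clec4f and Marco, the most and the least regular of the Kupffer-restricted genes within groups. All are on the minus strand, outside the counted exons, and read 5′ to 3′ with the letters searched for in capitals. C1qc is at chr4:136620226-136620475, C1qb at chr4:136613512-136613761, Clec4f at chr6:83633099-83633348 and Marco at chr1:120432754-120433003.
C1qc: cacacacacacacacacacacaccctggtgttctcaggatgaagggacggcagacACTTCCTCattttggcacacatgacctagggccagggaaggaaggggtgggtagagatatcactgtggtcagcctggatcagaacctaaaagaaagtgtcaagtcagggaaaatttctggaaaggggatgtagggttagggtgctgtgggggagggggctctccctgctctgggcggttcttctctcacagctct
C1qb: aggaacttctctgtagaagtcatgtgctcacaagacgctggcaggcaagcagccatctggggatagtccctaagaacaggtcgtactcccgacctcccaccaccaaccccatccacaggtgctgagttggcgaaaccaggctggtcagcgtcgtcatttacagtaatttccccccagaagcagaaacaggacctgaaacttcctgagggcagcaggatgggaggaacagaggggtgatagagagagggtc
Clec4f: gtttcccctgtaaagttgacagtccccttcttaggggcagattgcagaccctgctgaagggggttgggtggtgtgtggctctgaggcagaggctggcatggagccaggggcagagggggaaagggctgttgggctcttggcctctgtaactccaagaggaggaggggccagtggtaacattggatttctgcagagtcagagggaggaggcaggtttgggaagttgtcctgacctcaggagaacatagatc
Marco: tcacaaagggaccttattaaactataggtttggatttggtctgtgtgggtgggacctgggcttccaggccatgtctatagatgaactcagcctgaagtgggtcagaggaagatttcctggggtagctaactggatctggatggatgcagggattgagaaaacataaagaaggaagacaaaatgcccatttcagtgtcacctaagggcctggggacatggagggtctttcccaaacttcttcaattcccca
The share of G and C was 54.0% for C1qc, 55.2% for C1qb, 57.2% for Clec4f and 47.6% for Marco.

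Other genes of Kupffer cells were examined as lists. Of 9 other Kupffer cell markers none differed in edgeR's quasi-likelihood test in females (4 at an unadjusted p under 0.05, 3 with DESeq2 and 3 with limma-voom) or in males (1 at an unadjusted p under 0.05, 0 with DESeq2 and 0 with limma-voom). Their median log2 fold change was 0.83 in females and 0.36 in males, and all 9 were above 0 in females. Their summed level, with the iron exporter gene Slc40a1 as the gene at the highest level, was 411, 467, 484 and 663 CPM in female CRE- and 1704, 586, 1015 and 528 CPM in female LKO replicates 1 to 4. Female LKO replicate 1 was again the highest. In males it was 476, 383, 337 and 631 CPM in the controls and 711, 517, 434 and 422 CPM in LKO livers.

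Among transcription factors of Kupffer cells none passed in females in the quasi-likelihood test of edgeR with Benjamini-Hochberg adjustment (4 at an unadjusted p under 0.05, 1 with DESeq2 and 4 with limma-voom). Nr1h3, which encodes the oxysterol receptor LXR alpha, had the most reads of the list. In females Nr1h3 was at 118, 122, 113 and 172 CPM in the CRE- replicates and at 127, 93.1, 95.7 and 104 CPM in the LKO replicates, each in the order 1 to 4. In males Nr1h3 was at 85.3, 114, 85.7 and 123 CPM in the CRE- replicates and at 80.9, 109, 89.1 and 108 CPM in the LKO replicates, each in the order 1 to 4. The groups overlapped in both sexes. Its log2 fold change was -0.33 (SE 0.19) in females and -0.08 (SE 0.19) in males, and it passed in neither (adjusted p = 0.338 and 0.921 in that test). Nr1h3 ran against most of the list in females, where 6 of 8 were above 0, with a median of 0.72 in females and -0.16 in males.

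The ligands of the CSF1 receptor are given beside it. Csf1 had a log2 fold change of 0.03 (SE 0.24) in females and -0.35 (SE 0.24) in males, and Il34 had 0.0046 (SE 0.26) and -0.17 (SE 0.26). With the receptor genes Csf2ra and Csf2rb, 4 genes of that list were tested and none passed in edgeR's quasi-likelihood test in females (2 at an unadjusted p under 0.05, 2 with DESeq2 and 2 with limma-voom) or in males (0 at an unadjusted p under 0.05, 0 with DESeq2 and 0 with limma-voom). The medians were 0.67 and -0.42. The 5 genes of the C1 proteases and the C1 inhibitor, which complete the C1 complex and are made mainly by hepatocytes, had medians of 0.03 in females and -0.06 in males. None passed in females (0 at an unadjusted p under 0.05, 0 with DESeq2 and 0 with limma-voom) or in males (0 at an unadjusted p under 0.05, 0 with DESeq2 and 0 with limma-voom). Serping1, the C1 inhibitor gene and the gene of that list with the most reads, had a female change of 0.03 (SE 0.24).

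Receptors that share a function with the 10 genes were higher in part in female LKO livers. Of 8 complement receptor genes 2 rose in females in edgeR (5 at an unadjusted p under 0.05, 3 with DESeq2 and 4 with limma-voom), Itgam (2.57, SE 0.64), which encodes the CR3 alpha chain, and C5ar1 (1.999, SE 0.55), the receptor for C5a. None of these passed in males (0 at an unadjusted p under 0.05, 0 with DESeq2 and 0 with limma-voom), and the medians were 1.13 and -0.14. Of 11 genes for scavenger and dead cell uptake receptors and their ligands 2 rose in females in edgeR (7 at an unadjusted p under 0.05, 2 with DESeq2 and 1 with limma-voom), Msr1 (1.63, SE 0.44) and Cd209f (7.68, SE 1.58). Msr1 also passed with DESeq2 but not with limma-voom, and the other call of DESeq2 and the call of limma-voom were Mfge8. Cd209f was given no adjusted p by DESeq2, did not pass with limma-voom and had 8544, 6, 267 and 134 reads in the LKO replicates against 26, 12, 6 and 4 in the controls. Without female LKO replicate 1 the values were 2.002 for Itgam, 1.22 for C5ar1, 0.65 for Msr1 and 3.48 for Cd209f. None of the 11 passed in males (4 at an unadjusted p under 0.05, 1 with DESeq2 and 1 with limma-voom), and the medians were 0.78 and -0.12. Cr1l had the most reads of the complement receptor genes. Its mean was 52.0 ± 5.26 CPM (SD, n = 4) in female CRE- and 46.0 ± 5.98 CPM in female LKO livers. In males it was 40.3 ± 7.92 CPM in CRE- and 43.6 ± 3.63 CPM in LKO livers. Lrp1 had the most reads of the 11, with means of 744 ± 182 CPM in female CRE- and 901 ± 351 CPM in female LKO livers. In males its means were 1009 ± 398 CPM in CRE- and 595 ± 135 CPM in LKO livers. The adjusted p of the genes that rose was 0.0369 for Itgam, 0.0497 for C5ar1, 0.0486 for Msr1 and 0.0194 for Cd209f in the quasi-likelihood test of edgeR with Benjamini-Hochberg adjustment. With 1 female library left out at a time Itgam stayed past the threshold in 3 of 8 fits, C5ar1 in 2, Msr1 in 2 and Cd209f in 4, and none of them passed with females fitted alone. C5ar1 also lost its call with RLE size factors, where the adjusted p of that edgeR test (Benjamini-Hochberg) was 0.0506.

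Markers of other cells moved with the 10 genes in females. The 10 genes of macrophages and leukocytes in general had a median of 1.20 in females and -0.08 in males, with none past the threshold in edgeR's quasi-likelihood test in females (8 at an unadjusted p under 0.05, 4 with DESeq2 and 8 with limma-voom) or in males (0 at an unadjusted p under 0.05, 0 with DESeq2 and 0 with limma-voom). Their summed level, with Lyz2 the gene with the most reads, was 666, 386, 441 and 829.8 CPM in female CRE- and 1862, 774, 1377 and 1240.0 CPM in female LKO replicates 1 to 4. Of 8 markers of recruited monocytes 1 rose in females, Chil3 (4.94, SE 1.17), in edgeR (8 at an unadjusted p under 0.05, 6 with DESeq2 and 6 with limma-voom), and their medians were 2.06 and -0.84. Their summed level, with Plac8 the gene with the most reads, was 42.7, 17.8, 24.6 and 31.5 CPM in female CRE- and 168, 40.1, 74.0 and 156 CPM in female LKO livers. Of 8 markers of lipid-associated macrophages 4 rose in females in edgeR (5 at an unadjusted p under 0.05, 5 with DESeq2 and 4 with limma-voom), Trem2 (2.701, SE 0.60), Cd9 (1.41, SE 0.34), Cd63 (1.77, SE 0.37) and Lpl (2.57, SE 0.69), with medians of 1.59 and 0.50. Their summed level, with Lpl the gene at the highest level, was 298, 118, 149 and 278 CPM in female CRE- and 611, 395, 330.4 and 924 CPM in female LKO livers. None passed in males in edgeR among the monocyte markers (1 at an unadjusted p under 0.05, 0 with DESeq2 and 0 with limma-voom) or the lipid-associated ones (3 at an unadjusted p under 0.05, 1 with DESeq2 and 1 with limma-voom). The male call of DESeq2 and of limma-voom was Cd63. In males the monocyte sum was 52.9, 18.6, 29.7 and 69.5 CPM in CRE- and 42.1, 24.2, 20.9 and 17.991 CPM in LKO replicates 1 to 4, and the lipid-associated sum was 199, 114, 279.9 and 317 CPM and 268, 171, 239.8 and 213 CPM.

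Of 8 neutrophil markers tested 3 rose in females in edgeR (7 at an unadjusted p under 0.05, 7 with DESeq2 and 4 with limma-voom), Retnlg (2.86, SE 0.69), Mmp8 (3.50, SE 0.79) and Ngp (4.68, SE 1.27). Mmp8 and Ngp did not pass with limma-voom, whose 4 were S100a9, Retnlg, Csf3r and Mmp9. Their summed level, with S100a9 the gene with the most reads, was 41.5, 24.1, 18.8 and 55.2 CPM in female CRE- and 133, 49.9, 82.6 and 618 CPM in female LKO replicates 1 to 4. The highest neutrophil level was in LKO replicate 4, which was only the third of the LKO libraries in the summed Kupffer cell genes. In males the neutrophil sum was 93.4, 24.0, 19.5 and 181 CPM in the controls and 30.7, 19.1, 16.049 and 14.9 CPM in LKO livers, with 1 marker without reads in male LKO libraries, and none passed in edgeR (6 at an unadjusted p under 0.05, 2 with DESeq2 and 0 with limma-voom). The 2 male calls of DESeq2 were Mmp8 and Ngp, and all 8 male changes were below 0 in edgeR. The medians were 3.02 in females and -1.87 in males. The 8 hepatocyte markers had a summed level of 126464 ± 10844 CPM (SD, n = 4) in female CRE- and 78162 ± 22058 CPM (SD, n = 4) in female LKO livers, with 118173, 119706, 126079 and 141897 CPM in CRE- replicates 1 to 4 and 50144, 96384, 95198 and 70921 CPM in LKO replicates 1 to 4. LKO replicate 1 was lowest in hepatocyte markers and highest in Kupffer cell genes. In males the hepatocyte sum was 74976, 104616, 105114 and 101035 CPM in the controls and 69502, 85833, 96479 and 87344 CPM in LKO livers. None of these 8 passed in females (4 at an unadjusted p under 0.05, 2 with DESeq2 and 2 with limma-voom) or in males (2 at an unadjusted p under 0.05, 0 with DESeq2 and 0 with limma-voom), and their medians were -0.77 and 0.01. Alb had the most reads. The lists of monocyte, lipid-associated macrophage and neutrophil markers had positive medians in females, as the resident Kupffer cell genes had. The hepatocyte markers went the other way, with a negative median. The part of these lists in the female result was not tested. The adjusted p of the genes named here and among the macrophage markers that rose was 0.0305 for Chil3, 0.0249 for Trem2, 0.0340 for Cd9, 0.0201 for Cd63, 0.0474 for Lpl, 0.0331 for Retnlg, 0.0266 for Mmp8 and 0.0483 for Ngp in the quasi-likelihood test of edgeR with Benjamini-Hochberg adjustment. With females fitted alone, of these 8 genes Trem2 passed and the others did not. With 1 female library left out at a time, Cd63 stayed past the threshold in 6 of 8 fits, Trem2 in 4, Chil3 and Cd9 in 3, Lpl, Retnlg and Mmp8 in 2 and Ngp in 1. The lowest log2 fold change in those fits was 1.40 without LKO replicate 4 for Cd63, 2.34 without LKO replicate 1 for Trem2, 3.86 without LKO replicate 4 for Chil3, 0.92 without LKO replicate 4 for Cd9, 2.12 without LKO replicate 4 for Lpl, 2.04 without LKO replicate 4 for Retnlg, 2.66 without LKO replicate 4 for Mmp8 and 2.79 without LKO replicate 4 for Ngp.

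**Figure D3:**
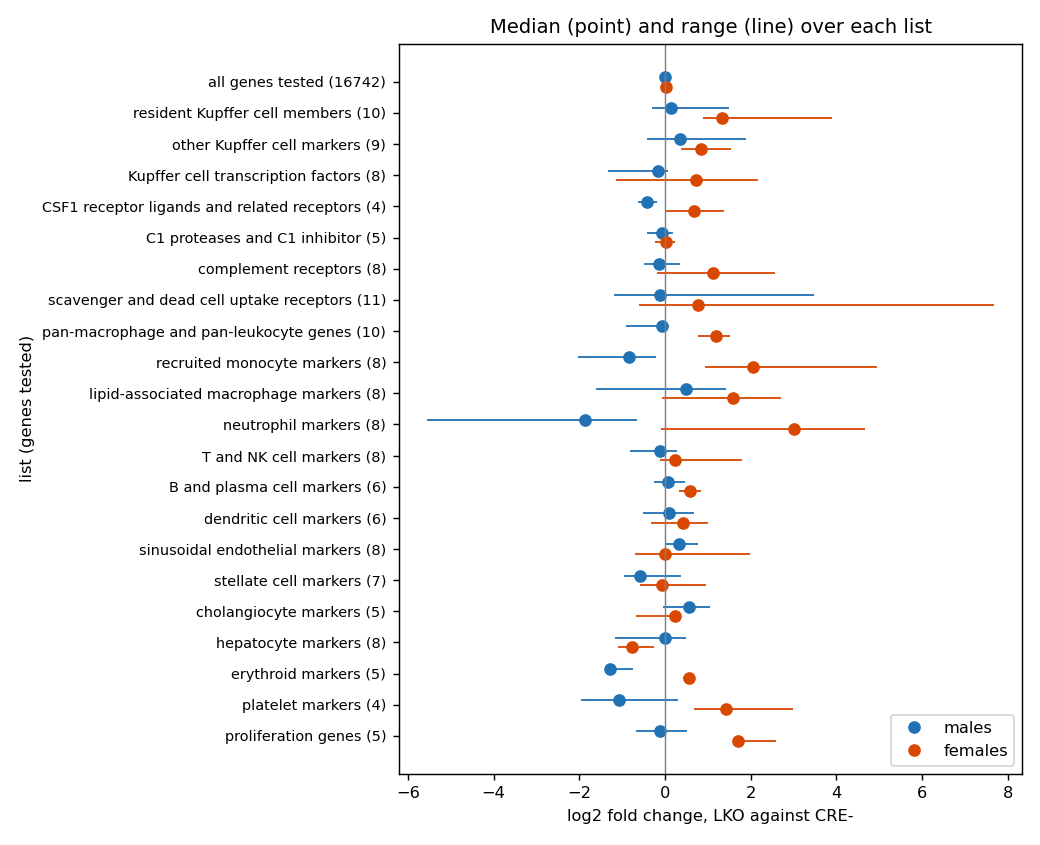
Median log2 fold change of LKO against CRE- (point) and range (line) over the tested genes of each list, for males and females, beside all genes tested. The median of the 10 resident Kupffer cell genes is 1.34 in females and 0.15 in males, and that of the neutrophil markers is 3.02 in females and -1.87 in males.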

How the data were processed

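The authors aligned paired reads to GRCm39 with STAR 2.7.1a and deposited raw gene counts for each library, made by strand-aware featureCounts (Subread 2.0.6). Per the labels, messenger RNA was purified with poly-T beads. Of 41079 genes, 16742 passed filterByExpr of edgeR at a minimum count of 10. TMM scaled the libraries, and a single fit of all 16, with sex and genotype as 4 groups, was made in edgeR 4.0.16 (R 4.3.3). The quasi-likelihood test with Benjamini-Hochberg adjustment over all 16742 genes had a threshold of 0.05. Levels are CPM, and log2 CPM used a prior count of 2. Totals of 33268424 to 56488920 reads per library set the precision, and counting error is largest for Marco in female CRE- replicate 4 (2 reads).

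All 10 members were named, as were the most abundant and the called genes of 20 lists of related genes and cell markers. The result of 1 gene of these lists is not reported here. The members and lists were chosen with earlier results of these data known. The alternatives were DESeq2 1.42.0, limma-voom (limma 3.58.1) with sample quality weights, RLE size factors, no filter on low counts, a replicate block, each sex fitted alone and each library left out in turn. Library totals without TMM, and the alternatives for called genes outside the members, were added after seeing the data. The steps were tested on simulated data. Each library is from 1 mouse.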

Additional observations from a re-analysis of the deposited data

Results flagged for a closer look

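In the male LKO group replicate 1 was far from the other 3 libraries, which lay close together, in most of the Kupffer cell genes. It had 90.6 CPM of Vsig4, 31.0 CPM of Timd4, 214 CPM of Marco, 62.3 CPM of Adgre1, 174 CPM of C1qa, 163 CPM of C1qb and 154 CPM of C1qc. Its summed level of the 10 genes was 1481 CPM, also far from the rest. In female CRE- replicate 4, C1qb was at 245 CPM, far above the other female controls. Gcgr was at 127 CPM in male CRE- replicate 3, far below the other male controls. The summed neutrophil markers were at 618 CPM in female LKO replicate 4, far above the other female LKO libraries, and the summed hepatocyte markers were at 74976 CPM in male CRE- replicate 1, far below the other male controls. Each of these was the end value of a group of 4 whose gap to its neighbour took more of the range of the group than Dixon's critical value for 4 samples. Chance gives about 1 such group in 20, and 72 groups were examined, many of them of genes that move together.

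Among summed marker lists, every male LKO library was below the mean of the male controls and every female LKO library above that of the female controls for recruited monocyte and neutrophil markers. Male LKO replicate 1 was just below in the monocyte sum, at 42.1 CPM against a control mean of 42.7 CPM. Its neutrophil sum of 30.7 CPM was above those of male CRE- replicates 2 and 3, at 24.0 and 19.5 CPM. The female minus male log2 difference of LKO and CRE- was 2.37 for the monocyte sum and 3.54 for the neutrophil sum. The sums were not tested. Gene by gene, the sex difference passed for 0 of 8 monocyte and 0 of 8 neutrophil markers in edgeR and in limma-voom, and for 6 and 7 with DESeq2. Of all genes tested 0% passed in edgeR and 0.173% in limma-voom, and 2.22% passed with DESeq2.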

How the results depend on the processing

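All 10 genes were higher in female LKO livers under each of the 7 other settings and without any 1 female library, while the number called in females ran from 0 to 9. It was 1 in the joint edgeR fit, 6 with DESeq2, 9 with limma-voom, 3 with library totals without TMM and 0 with each sex fitted alone, and 0 to 4 without 1 library. It was 1 with RLE size factors and 1 with no filter. For the fits without 1 library the share of all genes called is not given here. The counts in males, in the sex difference and between controls were 0 under every setting. The cause of these changes was not tested.

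With the replicate block the female count of members was 3, and the counts of all genes were 63 in males, 1244 in females, 0 for the sex difference and 161 between controls. Same-numbered libraries had correlations of their deviations from -0.01 to 0.17 in males and 0.03 to 0.17 in females. In males 3 of 4 LKO libraries correlated best with their own number and in females 2 of 4, and 6 of the 8 same-numbered pairs had a correlation over 0.1. The labels name no animal, litter or batch shared by a number. The numbers used are those of the sample titles. Male CRE- replicate 4 and female LKO replicates 3 and 4 carry another number in their library names.

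The male log2 fold change turned negative for Clec4f (-0.0075 with DESeq2, -0.0076 with RLE, -0.011 with no filter, -0.11 with limma-voom and -0.021 with males alone) and for Cd5l (-0.0036, -0.0036, -0.0085, -0.14 and -0.019 in that order). With limma-voom it was also -0.19 for Vsig4, -0.0064 for C1qa and -0.012 for C1qc. Between controls it turned for Timd4 (-0.040 with limma-voom, -0.00015 without TMM), Cd5l (-0.29 and -0.18), C1qa (-0.084 with limma-voom) and C1qc (-0.11). Without 1 library the female change ran from 0.49 to 1.29 for Clec4f, 1.13 to 1.64 for Vsig4, 1.33 to 2.14 for Timd4, 3.12 to 4.95 for Marco, 0.83 to 1.66 for Cd5l, 1.21 to 2.44 for Adgre1, 0.92 to 1.62 for Csf1r, 0.69 to 1.46 for C1qa, 0.70 to 1.44 for C1qb and 0.996 to 1.63 for C1qc. The male change ran from -0.27 to 0.33 for Clec4f, -0.30 to 0.58 for Vsig4, 0.30 to 1.28 for Timd4, 0.87 to 2.25 for Marco, -0.29 to 0.46 for Cd5l, -0.63 to 0.35 for Adgre1, -0.54 to 0.10 for Csf1r, -0.16 to 0.75 for C1qa, -0.13 to 0.74 for C1qb and -0.20 to 0.69 for C1qc. The control difference ran from -0.015 to 0.58 for Clec4f, 0.29 to 1.05 for Vsig4, -0.13 to 0.68 for Timd4, -2.32 to -0.51 for Marco, -0.35 to 0.49 for Cd5l, -0.63 to 0.16 for Adgre1, -0.40 to 0.26 for Csf1r, -0.19 to 0.98 for C1qa, -0.10 to 1.02 for C1qb and -0.20 to 0.84 for C1qc. DESeq2 gave no adjusted p for Cd209f in females. The cause was not tested.

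Over all genes tested, edgeR called 710 in females (49.3% higher). Library totals without TMM called 1212 (83.6% higher) and moved the median of all genes from 0.04 to 0.30 and that of the members from 1.34 to 1.67. DESeq2 called 1816, limma-voom 1976 and females alone 119 (39.5% higher). In males the 76 of edgeR (48.7% higher) became 339 with DESeq2 and 148 with limma-voom (37.2% higher). The sex difference had 0 genes, 371 with DESeq2, 29 with limma-voom and 12 with no filter, and between controls 154 (44.8% higher) became 509 with DESeq2, 329 with limma-voom and 170 without TMM (31.8% higher). With 4 mice a group, and a spread within groups above the median of all genes for each of the 10, changes of the size seen in males could not be told from 0.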

Other observations

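In female CRE- replicate 4 the macrophage receptor genes Folr2 and Cd163 were low along with Marco. The summed level of the other Kupffer cell markers, which include both, was highest there among the female controls. It was 663 CPM, beside 411, 467 and 484 CPM in replicates 1, 2 and 3. Folr2 was at 17.1, 17.3, 18.5 and 2.89 CPM and Cd163 at 5.81, 6.87, 4.45 and 0.909 CPM in female CRE- replicates 1 to 4, while Clec4f, Cd5l and the C1q chains were highest in replicate 4. Cd163, the haemoglobin scavenger receptor, was at 5.23, 11.1, 1.09 and 3.55 CPM in male CRE- and 19.8, 20.7, 18.2 and 18.8 CPM in male LKO replicates 1 to 4. All male LKO libraries were above all male controls, with a log2 fold change of 1.88 (SE 0.63) and an adjusted p of 0.295 in the quasi-likelihood test of edgeR with Benjamini-Hochberg adjustment. Cd209f had 6, 6, 0 and 8 reads in the male controls and 72, 56, 40 and 41 in male LKO livers, without overlap, and a male log2 fold change of 3.48 (SE 1.58) that did not pass. These genes were chosen after their values were seen.

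Genes of proliferation rose in female LKO livers, 4 of the 5 on the list in edgeR (5 at an unadjusted p under 0.05, 5 with DESeq2 and 4 with limma-voom), Top2a (2.45, SE 0.63), Ccnb1 (2.60, SE 0.58), Cdk1 (1.72, SE 0.39) and Birc5 (1.63, SE 0.36). With 1 female library left out they stayed past the threshold in 1, 4, 4 and 4 of 8 fits, and with females fitted alone neither they nor Pf4 passed. The list median was 1.72 in females and -0.10 in males, where none passed (0 at an unadjusted p under 0.05, 0 with DESeq2 and 0 with limma-voom), and Mki67 had the most reads. Of 4 platelet markers (3 at an unadjusted p under 0.05, 2 with DESeq2 and 2 with limma-voom in females) Pf4 rose in females in edgeR (2.99, SE 0.77, past the threshold in 1 of 8 such fits), with medians of 1.41 and -1.07, and none passed in males (2 at an unadjusted p under 0.05, 0 with DESeq2 and 0 with limma-voom).

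The 8 markers of T and NK cells (Nkg7 with the most reads) had medians of 0.24 in females (1 at an unadjusted p under 0.05, 0 with DESeq2 and 2 with limma-voom) and -0.11 in males (0 at an unadjusted p under 0.05, 0 with DESeq2 and 0 with limma-voom), with none past the threshold in edgeR. The 6 markers of B and plasma cells (Jchain) had medians of 0.59 in females (1 at an unadjusted p under 0.05, 0 with DESeq2 and 0 with limma-voom) and 0.08 in males (0 at an unadjusted p under 0.05, 0 with DESeq2 and 0 with limma-voom), with none past the threshold in edgeR. The 6 markers of dendritic cells (Zbtb46) had medians of 0.43 in females (0 at an unadjusted p under 0.05, 0 with DESeq2 and 0 with limma-voom) and 0.09 in males (0 at an unadjusted p under 0.05, 0 with DESeq2 and 0 with limma-voom), with none past the threshold in edgeR. The 8 markers of sinusoidal endothelium (Stab2) had medians of -0.01 in females (2 at an unadjusted p under 0.05, 1 with DESeq2 and 0 with limma-voom) and 0.33 in males (1 at an unadjusted p under 0.05, 0 with DESeq2 and 0 with limma-voom), with none past the threshold in edgeR. The 7 markers of stellate cells (Dcn) had medians of -0.07 in females (0 at an unadjusted p under 0.05, 0 with DESeq2 and 1 with limma-voom) and -0.57 in males (1 at an unadjusted p under 0.05, 0 with DESeq2 and 0 with limma-voom), with none past the threshold in edgeR. The 5 markers of cholangiocytes (Sox9) had medians of 0.24 in females (0 at an unadjusted p under 0.05, 0 with DESeq2 and 0 with limma-voom) and 0.56 in males (0 at an unadjusted p under 0.05, 0 with DESeq2 and 0 with limma-voom), with none past the threshold in edgeR. The 5 erythroid markers (Hbb-bs) had medians of 0.57 in females (0 at an unadjusted p under 0.05, 0 with DESeq2 and 0 with limma-voom) and -1.27 in males (4 at an unadjusted p under 0.05, 0 with DESeq2 and 0 with limma-voom), with none past the threshold in edgeR. Between controls Krt19, a keratin of cholangiocytes, was higher in females (1.66, SE 0.35, adjusted p = 0.0300 in the quasi-likelihood test of edgeR with Benjamini-Hochberg adjustment).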
